A study of Hyphopichia burtonii with 8 samples.

Results

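The genes described here are 10 ribosome assembly factors of the yeast Hyphopichia burtonii, out of 6166 genes with a value in every library and 5765 that were tested. They were chosen by gene name, from earlier results of these same libraries, as NOG2, DRS1, BMS1, BUD22, MAK16, SRP40, RRP9, NIP7, RRP15 and MPP10. All 10 carried the same symbol in the RefSeq annotation of this species, and all 10 passed the filter on low values. Each of them was higher in all 3 stress media than in YPD, and because that pattern was known when they were chosen, the differences from YPD are given as a description. Counts of members called against YPD repeat the values they were chosen on and are no test of them.

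The cells were of strain KJJ43, a wild type from Nuruk, a fermentation starter. For 1 h they grew with a solute added to YPD, namely NaCl at 1 M, KCl at 1 M or sorbitol at 1 M, or in plain YPD, a rich medium with glucose and the control of the study. Each medium had 2 libraries of total RNA, 8 in all, and NaCl 1 stands for the first NaCl replicate. Nothing in the sources used here tells whether duplicates were separate cultures, so the p-values cover the spread between these libraries alone, which may be technical. The values came from whole cultures, in which more transcript in every cell and transcript in more of the cells cannot be told apart.

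Ribosomes are put together in the nucleolus, where RNA polymerase I transcribes a long precursor of the ribosomal RNAs. Assembly factors fold, cut and modify that precursor, add ribosomal proteins in order, and leave before the finished subunits act in translation. In Saccharomyces cerevisiae the genes for these factors, known as the ribosome biogenesis regulon, are tightly tied to growth, and their transcripts fall quickly after many stresses. All functions named here are background knowledge from S. cerevisiae and other relatives.

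Levels are in FPKM, fragments counted on a gene relative to its length and to the depth of the library, so that levels of genes of different length can be set side by side. Log2 differences were taken on log2(FPKM + 1) and are given ± standard error from limma, fitted over all tested genes and all 8 libraries. A gene was called at a Benjamini-Hochberg adjusted p under 0.05. Summed FPKM ran from 1197308 to 1649003 per library. The files held no fragment counts, but low values fell near multiples of a step, and from that step the member values rested on an estimated 86 fragments (SRP40 in YPD 1) to 9210 fragments (BMS1 in KCl 1).

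Of the 10 genes, 5 act on the large subunit, and all 5 had higher levels in each solute than in YPD. NOG2 (HYPBUDRAFT_13841), a GTPase of late nuclear large-subunit precursors, stood at 101 and 82.8 FPKM in NaCl, 121 and 97.2 FPKM in KCl and 131 and 86.3 FPKM in sorbitol, against 26.0 and 39.1 FPKM in YPD. Its log2 difference from YPD was 1.49 in NaCl, 1.73 in KCl and 1.71 in sorbitol (each ± 0.26). The lowest of its 6 solute libraries, NaCl 2, lay above the higher YPD library. NIP7 (HYPBUDRAFT_154285), a nucleolar protein needed for large-subunit formation, had 106 and 81.5 FPKM in NaCl, 139 and 82.6 FPKM in KCl and 126 and 71.9 FPKM in sorbitol, against 21.0 and 36.1 FPKM in YPD. Its log2 differences were 1.71, 1.92 and 1.75 (each ± 0.36) in NaCl, KCl and sorbitol. In both of these genes replicate 1 was the higher library in every solute and the lower one in YPD.

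RRP15 (HYPBUDRAFT_96791), which acts on early large-subunit precursors, had 60.6 and 51.1 FPKM in NaCl, 87.0 and 71.5 FPKM in KCl and 109 and 65.35 FPKM in sorbitol, against 20.6 and 29.1 FPKM in YPD. DRS1 (HYPBUDRAFT_96246), a DEAD-box RNA helicase of the same pathway, had 56.4 and 49.9 FPKM in NaCl, 66.4 and 53.5 FPKM in KCl and 77.1 and 59.8 FPKM in sorbitol, against 18.6 and 36.7 FPKM in YPD. DRS1 came closest to overlap of all 10 genes, since its lowest solute library was 1.36 times its highest YPD library. MAK16 (HYPBUDRAFT_153760), a nucleolar protein of early precursors, had 61.7 and 32.5 FPKM in NaCl, 52.6 and 25.9 FPKM in KCl and 69.5 and 26.7 FPKM in sorbitol, against 7.65 and 9.79 FPKM in YPD. The log2 differences of RRP15 were 1.15, 1.65 and 1.74 (each ± 0.265), those of DRS1 0.99, 1.16 and 1.34 (each ± 0.29) and those of MAK16 2.25, 1.98 and 2.195 (each ± 0.49), in NaCl, KCl and sorbitol. MAK16 thus had the largest differences of the 5 large-subunit genes and the widest errors among them.

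Another 4 genes act on the small subunit, whose large early particle, the processome, holds the U3 RNA. BMS1 (HYPBUDRAFT_105522), a GTPase of that particle, had 62.6 and 64.5 FPKM in NaCl, 97.8 and 79.0 FPKM in KCl and 109.8 and 70.7 FPKM in sorbitol, against 38.8 and 40.8 FPKM in YPD. It had the highest YPD level of the 10 genes and the smallest difference in each solute, 0.66 ± 0.21 in NaCl, 1.125 in KCl and 1.13 in sorbitol. MPP10 (HYPBUDRAFT_153620), a scaffold protein bound to the U3 particle, had 40.2 and 34.4 FPKM in NaCl, 43.3 and 37.0 FPKM in KCl and 53.9 and 30.1 FPKM in sorbitol, against 8.08 and 15.8 FPKM in YPD. RRP9 (HYPBUDRAFT_13454), a protein of the U3 particle itself, had 45.3 and 32.1 FPKM in NaCl, 58.4 and 37.3 FPKM in KCl and 52.8 and 38.7 FPKM in sorbitol, against 9.025 and 15.6 FPKM in YPD. The differences of MPP10 (1.63, 1.73 and 1.74, each ± 0.34) and RRP9 (1.599, 1.88 and 1.84, each ± 0.32) lay close together in all 3 solutes.

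BUD22 (HYPBUDRAFT_140735), a nucleolar protein needed to mature the small-subunit RNA, was the member that differed most from YPD. It had 30.7 and 17.8 FPKM in NaCl, 37.9 and 18.7 FPKM in KCl and 43.2 and 14.4 FPKM in sorbitol, against 4.11 and 2.77 FPKM in YPD. Its mean was 24.2 ± 9.13 FPKM in NaCl, 28.3 ± 13.6 FPKM in KCl and 28.8 ± 20.3 FPKM in sorbitol, against 3.44 ± 0.944 FPKM in YPD (SD, n = 2 each). The ratios of those means to YPD were 7.04, 8.23 and 8.37, and the log2 differences were 2.47, 2.66 and 2.57 (each ± 0.52). Sorbitol 1 was 3.0 times sorbitol 2, and even so the lowest solute library was 3.50 times the higher YPD library. In the annotation BUD22 overlaps a neighbouring gene by 40 nt, and the sources used here do not tell whether the authors counted by strand, so reads in that stretch cannot be told apart. The neighbour had 57.4 and 60.2 FPKM in NaCl, 45.7 and 48.8 FPKM in KCl and 27.1 and 28.7 FPKM in sorbitol, against 42.0 and 44.8 FPKM in YPD. Both of its NaCl and both of its KCl libraries lay above YPD, as those of BUD22 did, and both sorbitol libraries lay below YPD, where those of BUD22 lay above. The part of the overlap in the BUD22 values was not tested.

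SRP40 (HYPBUDRAFT_154112), a serine-rich nucleolar protein that resembles the mammalian snoRNP chaperone Nopp140, had 38.1 and 24.1 FPKM in NaCl, 35.5 and 21.8 FPKM in KCl and 25.8 and 17.6 FPKM in sorbitol, against 3.39 and 7.48 FPKM in YPD. It was the one member with its highest mean in NaCl and its lowest solute mean in sorbitol. Its log2 differences from YPD were 2.36, 2.24 and 1.87 (each ± 0.38) in NaCl, KCl and sorbitol.

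**Figure D1:**
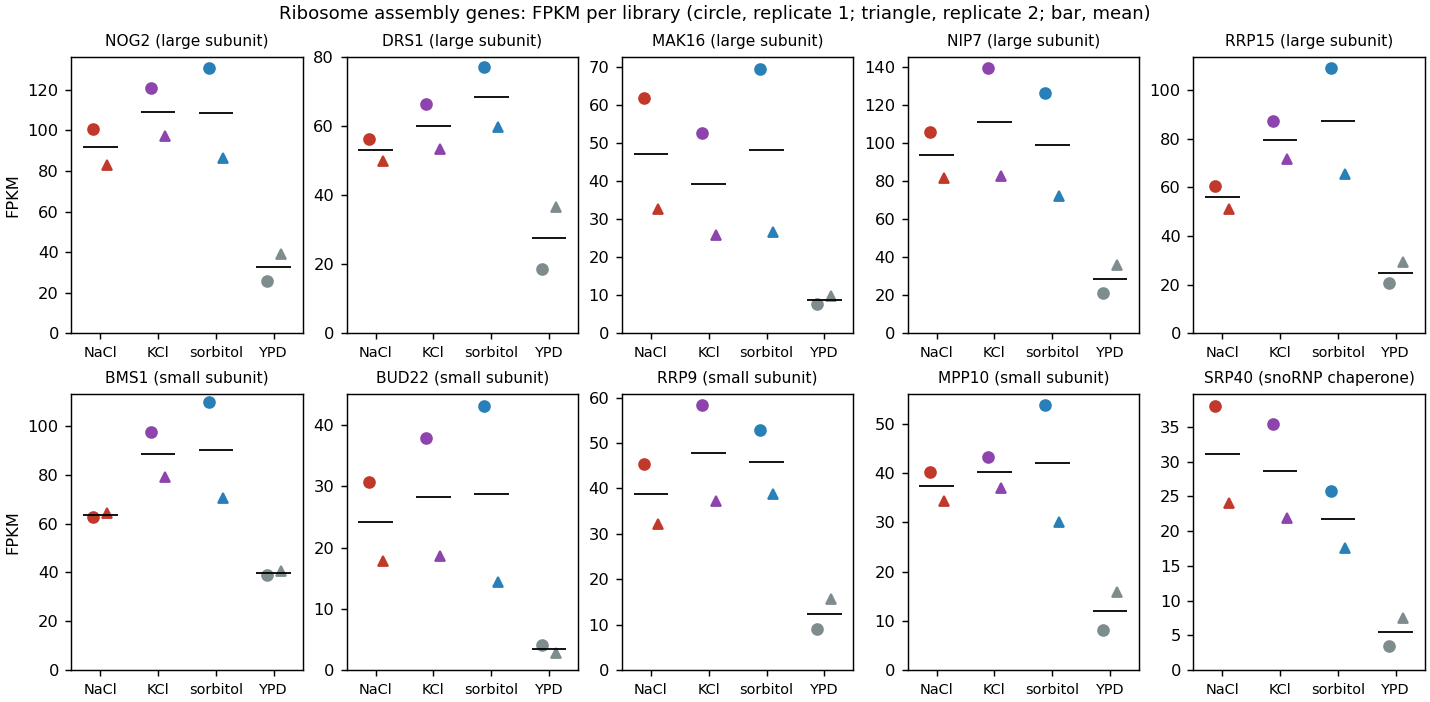
FPKM of each of the 10 genes in every library, by medium, on linear axes from 0 that differ between panels, with a circle for replicate 1, a triangle for replicate 2 and a bar at their mean. All 6 solute points lie above both YPD points in each panel, from 1.36 times apart in DRS1 to 3.50 times in BUD22.

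All 10 genes had all 6 solute libraries above both YPD libraries. Over all tested genes 601, or 10.4%, did so. All 10 were called higher in NaCl (16.0% of tested genes were called higher and 11.5% lower), in KCl (6.45% and 4.51%) and in sorbitol (3.75% and 1.21%). Nothing is read from these counts, since the members were chosen on the same values. The members' median log2 difference was 1.61 in NaCl, 1.81 in KCl and 1.75 in sorbitol, against 0.00, 0.01 and -0.04 over all tested genes. The 3 comparisons share the YPD libraries, so the same YPD values stand behind each. The sign held under every setting tried, with a lowest value of 0.52 in NaCl, 0.68 in KCl and 0.81 in sorbitol for any member.

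The number of members called, which is given as a description, depended on single libraries, YPD 1 among them. In NaCl it was 2 without NaCl 1 and 3 without YPD 1, and BMS1 alone was no longer called with no filter or under quantile or median-of-ratios scaling. In KCl it was 1 without KCl 1 and 0 without YPD 1. In sorbitol it was 2 without NaCl 1 or without NaCl 2, and 0 without sorbitol 1, without YPD 1 or when sorbitol and YPD were fitted alone.

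**Figure D2:**
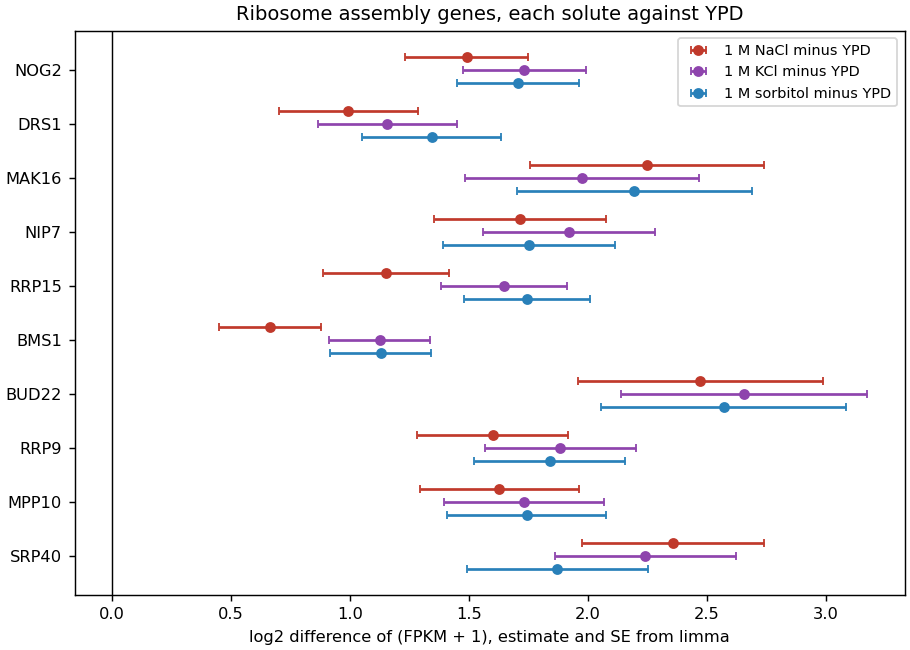
Log2 difference of (FPKM + 1) from YPD for each of the 10 genes in NaCl, KCl and sorbitol, with bars of 1 standard error from limma to either side. BUD22 lies highest at 2.47 to 2.66 and BMS1 in NaCl lowest at 0.66.

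The 3 solutes were compared with each other in the same fit, and here limma called 0 of the 10 genes in any comparison, with 0 at an unadjusted p under 0.05. Setting aside the fits with 1 library left out, up to 2 members had an unadjusted p under 0.05 in limma under other settings, all lower in NaCl. For NaCl minus KCl there was 1 with the replicate block or under quantile normalization, and there were 2 when those media were fitted alone. For NaCl minus sorbitol there were 2 with the replicate block, 2 under quantile normalization and 1 under median-of-ratios scaling. Of all tested genes, 6.80% were called higher and 3.99% lower in NaCl than in KCl, 16.8% and 13.6% in NaCl than in sorbitol, and 3.64% and 2.53% in KCl than in sorbitol. The members' median difference was -0.20 for NaCl minus KCl, -0.17 for NaCl minus sorbitol and 0.01 for KCl minus sorbitol. A missed threshold does not show that the solutes act alike, and the intervals left room for sizeable differences. Choosing genes higher in all 3 solutes also leaves out those that are low in any of them. BUD22 had the widest, and its KCl minus sorbitol value was 0.09 with a 95% interval of -1.10 to 1.27.

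BMS1 and RRP15 came nearest to a difference between solutes. For BMS1 the log2 difference was -0.46 (95% interval -0.95 to 0.03) for NaCl minus KCl and -0.47 (-0.95 to 0.02) for NaCl minus sorbitol. For RRP15 it was -0.50 (-1.10 to 0.11) and -0.59 (-1.20 to 0.015). In both genes the 2 NaCl libraries lay below both KCl libraries and below both sorbitol libraries, and in DRS1 they lay below both sorbitol libraries. That makes 2 of 10 members for KCl and 3 of 10 for sorbitol, against 28.9% and 32.5% of all tested genes, shares near the members' own. Without sorbitol 2, BMS1 (-0.78) and RRP15 (-0.96) were called lower in NaCl than in sorbitol. SRP40 had the opposite sign for NaCl minus sorbitol, 0.49 (-0.39 to 1.36).

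**Figure D3:**
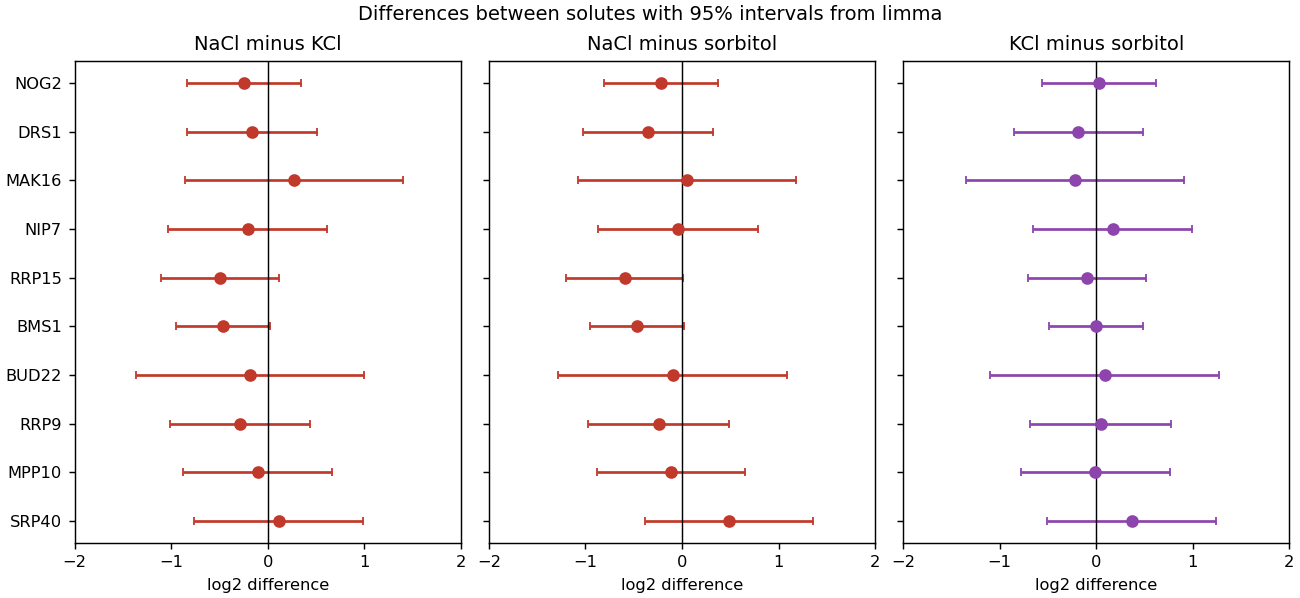
Log2 difference of (FPKM + 1) between solutes for each of the 10 genes, with 95% intervals from limma. Every interval crosses 0, and those of BMS1 and RRP15 in NaCl minus sorbitol reach it most narrowly, ending at 0.02 and 0.015.

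Mean levels put sorbitol highest in 6 genes (DRS1, BMS1, BUD22, MAK16, RRP15 and MPP10), KCl highest in 3 (NOG2, RRP9 and NIP7) and NaCl highest in SRP40. NaCl was lowest of the solutes in 8 of the 10, the exceptions being MAK16, lowest in KCl, and SRP40, lowest in sorbitol. These orders rest on means whose libraries overlap in most genes, as the intervals show.

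Between the genes, levels were more alike in the solutes than in YPD. The highest member mean was 3.86 times the lowest in NaCl, 3.92 times in KCl and 5.00 times in sorbitol, against 11.6 times in YPD. Each ratio rests on the highest and lowest gene alone, the lowest in YPD being BUD22. The members were chosen on these same values, which favours genes low in YPD, so the ratios are a description. In NaCl the order was NIP7 (93.5 ± 17.0 FPKM), NOG2, BMS1, RRP15, DRS1, MAK16, RRP9, MPP10, SRP40 and BUD22. Neighbours in that order overlapped except NOG2 and BMS1, and BMS1 and RRP15. In KCl the order ran NIP7, NOG2, BMS1, RRP15, DRS1, RRP9, MPP10, MAK16, SRP40 and BUD22, with RRP15 and DRS1 the one pair of neighbours apart. In sorbitol it ran NOG2, NIP7, BMS1, RRP15, DRS1, MAK16, RRP9, MPP10, BUD22 and SRP40, and all neighbours overlapped.

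In YPD the order was BMS1 (39.8 ± 1.43 FPKM), NOG2, NIP7, DRS1, RRP15, RRP9, MPP10, MAK16, SRP40 and BUD22, with gaps between RRP15 and RRP9 and between MAK16 and SRP40. BMS1 lay above 54.3% of tested genes in YPD and BUD22 above 6.63%. In sorbitol the corresponding shares were 73.6% for BMS1 and 44.8% for BUD22. The 3 lowest genes in YPD, BUD22, SRP40 and MAK16, had the 3 largest log2 differences in each solute, and those differences use the same YPD values.

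Duplicates of the same medium differed in a shared direction. Replicate 1 was the higher library for 9 of 10 members in NaCl (all but BMS1), for 10 of 10 in KCl and for 10 of 10 in sorbitol, against 1 of 10 in YPD, where BUD22 was the exception. The median log2 gap, replicate 1 minus replicate 2, was 0.33 in NaCl, 0.47 in KCl and 0.68 in sorbitol, against -0.65 in YPD. Of 77 other assembly genes, 81.8% were higher in replicate 1 in NaCl, 92.2% in KCl and 87.0% in sorbitol, against 3.9% in YPD, while over all tested genes the shares were 50.5%, 51.8%, 51.2% and 46.0%. Related groups showed much of this too. Of 66 ribosomal protein genes, replicate 1 was higher for 40.9% in NaCl, 98.5% in KCl and 92.4% in sorbitol, against 3.03% in YPD. Of 9 RNA polymerase I genes it was higher for 9 in NaCl, 9 in KCl and 8 in sorbitol, against 3 in YPD. Of 8 RNA polymerase III genes it was higher for 7 in NaCl, 3 in KCl and 6 in sorbitol, against 3 in YPD. Of 10 exosome and nuclease genes it was higher for 7 in NaCl, 8 in KCl and 8 in sorbitol, against 7 in YPD. In sorbitol the direction was thus shared by most genes of each of these related groups. In NaCl, KCl and YPD some of these groups shared it, though not all.

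The summed level of the 10 genes shows the size of that spread. It was 601.9 and 470.6 FPKM in NaCl, 738.8 and 524.4 FPKM in KCl and 798.0 and 481.7 FPKM in sorbitol, against 157 and 233 FPKM in YPD. The lowest solute sum, NaCl 2, was still above the higher YPD sum. The part of the duplicates' preparation in this spread was not tested.

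**Figure D4:**
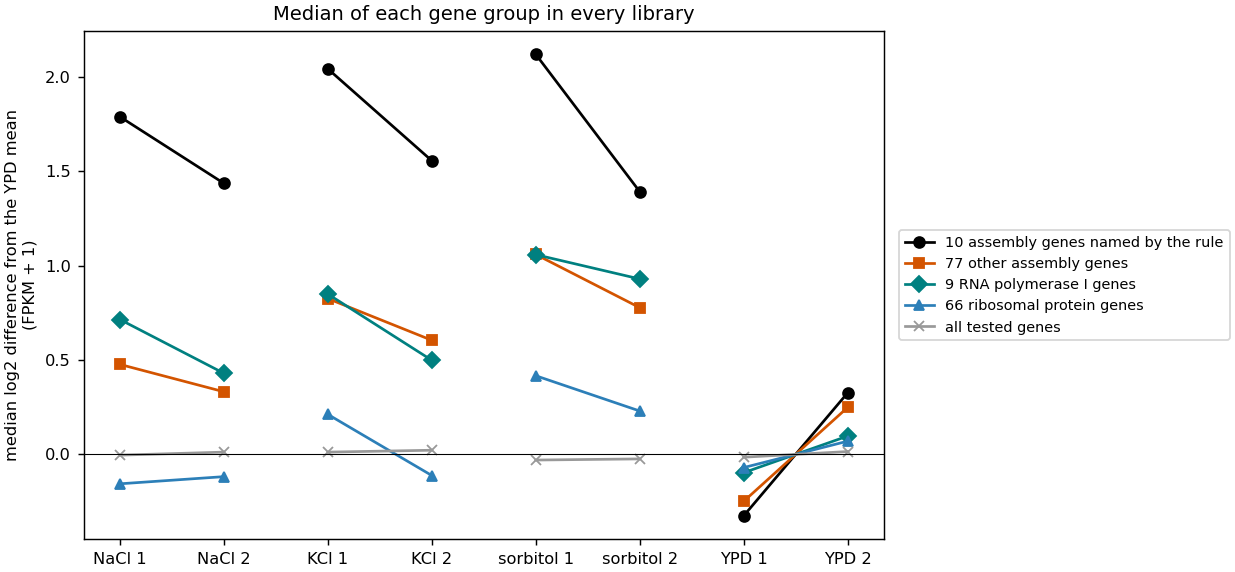
Median log2 difference of (FPKM + 1) from the YPD mean for the 10 genes, 77 other assembly genes, 9 RNA polymerase I genes, 66 ribosomal protein genes and all tested genes, in each library, with lines joining the duplicates of a medium. The 10 genes lie at 1.79 and 1.44 in NaCl, 2.04 and 1.56 in KCl and 2.12 and 1.39 in sorbitol, against -0.33 and 0.33 in YPD, while all tested genes stay near 0.

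Large- and small-subunit members kept step. The 5 large-subunit genes had a median log2 difference from the YPD mean of 1.63 and 1.35 in the NaCl libraries, 1.89 and 1.51 in KCl and 2.11 and 1.38 in sorbitol. The 4 small-subunit genes had 1.79 and 1.44 in NaCl, 2.02 and 1.59 in KCl and 2.10 and 1.48 in sorbitol. In every library the 2 medians differed by less than the gap between the duplicates of that medium.

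Across the 8 libraries the log2 profiles of the 45 pairs of members correlated at Pearson r between 0.809 and 0.992, and across the 6 solute libraries at 0.101 to 0.974. The points share libraries, and the members were chosen for being high in the solutes, so these are descriptions. The lowest value among solute libraries was that of BMS1 with SRP40, of which the first had its lowest solute mean in NaCl and the second its highest. Among annotated genes that are not members, the 5 profiles most like the members' mean over 8 libraries were those of FHL1 (r = 0.996), RPF2 (0.991), HAS1 (0.989), DBP7 (0.987) and MAK5 (0.986). RPF2 is a large-subunit assembly factor, and HAS1, DBP7 and MAK5 are RNA helicases of the same process. FHL1, a forkhead transcription factor known in S. cerevisiae for binding ribosomal protein genes, had 15.0 and 13.7 FPKM in NaCl, 19.7 and 14.8 FPKM in KCl and 20.1 and 13.4 FPKM in sorbitol, against 5.37 and 6.95 FPKM in YPD. Its levels followed the members' pattern of high replicate 1 in each solute and low replicate 1 in YPD.

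The wider pathway was described with lists of gene symbols, which hold 87 assembly genes, the 10 members included. Ranked by log2 difference from YPD among those 87, 7 members were in the top 10 in NaCl, 7 in KCl and 8 in sorbitol, and BUD22 ranked 1 in all 3. The members' lowest rank was 38 in NaCl (BMS1), 26 in KCl and 38 in sorbitol. The genes described here are therefore the upper end of the assembly genes by the measure they were chosen on.

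Of the 77 other assembly genes, 19 (24.7%) rose and 4 (5.19%) fell in NaCl, with a median log2 difference of 0.44. Of all tested genes, 16.0% were called higher and 11.5% lower in NaCl, 6.45% and 4.51% in KCl and 3.75% and 1.21% in sorbitol. In KCl 25 (32.5%) rose and 0 fell (median 0.71, limma's unadjusted p was under 0.05 for 55 genes that were higher and 0 that were lower). In sorbitol 37 (48.1%) rose and 0 fell (median 0.92, unadjusted, 71 higher and 0 lower by the same measure). These counts rested on single libraries. In NaCl the rises numbered 1 without NaCl 1, 12 without NaCl 2 and 4 without YPD 1, and the falls 1 without YPD 1 and 2 without NaCl 1, NaCl 2 or YPD 2. In KCl the rises numbered 14 without NaCl 1 or NaCl 2, 1 without KCl 1, 11 without KCl 2 and 1 without YPD 1. In sorbitol they numbered 2 without NaCl 1 or NaCl 2, 19 without sorbitol 2, and 0 without sorbitol 1 or YPD 1, where 54 and 50 genes had an unadjusted p under 0.05 in limma.

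Among 36 small-subunit genes, 8 (22.2%) rose and 1 (2.78%) fell in NaCl, 11 (30.6%) rose in KCl and 17 (47.2%) rose in sorbitol. Over all tested genes 16.0% were called higher and 11.5% lower in NaCl, and 6.45% and 3.75% higher in KCl and sorbitol. DIM1, the methylase of small-subunit RNA, rose to 61.5 ± 28.0 FPKM in NaCl, against 14.8 ± 2.40 FPKM in YPD (log2 difference 1.91 ± 0.49, adjusted p = 0.023 in limma), a call lost without NaCl 1, YPD 1 or YPD 2 (up to 0.15). In KCl its difference of 1.84 ± 0.49 was called just under the threshold, and lost when 1 of 5 libraries was left out, NaCl 1, NaCl 2, KCl 1, YPD 1 or YPD 2. NOC4, a nucleolar complex protein, rose by 1.49 ± 0.37 in NaCl (lost without either NaCl library) and by 1.78 ± 0.37 in KCl (lost without either KCl library). In sorbitol the largest rises called were those of IMP4, a partner of MPP10 (1.72 ± 0.28, lost without sorbitol 1, YPD 1 or YPD 2), and SAS10, a processome protein (1.63 ± 0.28, lost without NaCl 1, NaCl 2, sorbitol 1 or YPD 1). SIK1, the box C/D snoRNP core protein also known as Nop56, was the one that fell in NaCl, to 297 ± 12.5 FPKM, against 405 ± 13.6 FPKM in YPD (-0.45 ± 0.11, lost when any 1 of the NaCl or YPD libraries was left out).

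Among 36 large-subunit genes, 11 (30.6%) rose and 3 (8.33%) fell in NaCl, 14 (38.9%) rose in KCl and 18 rose in sorbitol. The share that fell lay below the 11.5% of all tested genes called lower in NaCl. The shares of all tested genes called higher were 16.0% in NaCl, 6.45% in KCl and 3.75% in sorbitol. The helicase HAS1 rose by 1.53 ± 0.32 in NaCl, 1.67 ± 0.32 in KCl and 1.62 ± 0.32 in sorbitol, and each call was lost without YPD 1 or without replicate 1 of that solute, that in sorbitol also without NaCl 1, NaCl 2 or YPD 2. MAK5 rose by 1.56 ± 0.37 in NaCl (lost without NaCl 1 or YPD 1), and NOP4, an RNA-binding protein, by 1.71 ± 0.38 in KCl (lost without KCl 1, KCl 2 or YPD 1) and 1.70 ± 0.38 in sorbitol (lost when any 1 library other than YPD 2 was left out).

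NOG1, a GTPase of the large subunit like NOG2, had 106 and 96.2 FPKM in NaCl, 243 and 167 FPKM in KCl and 359 and 289 FPKM in sorbitol, against 211 and 222 FPKM in YPD. Its fall in NaCl, -1.09 ± 0.19 (adjusted p = 0.00485 in limma), was called whichever library was left out. NOG2 and NOG1 thus stood on opposite sides of YPD in NaCl and on the same side in sorbitol. ARX1, a shuttling export factor of the large subunit, fell by 0.78 on the log2 scale in NaCl (SE 0.17), to 87.3 ± 9.64 FPKM, against 150.2 ± 6.55 FPKM in YPD, a call lost without NaCl 2, YPD 1 or YPD 2.

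**Figure D5:**
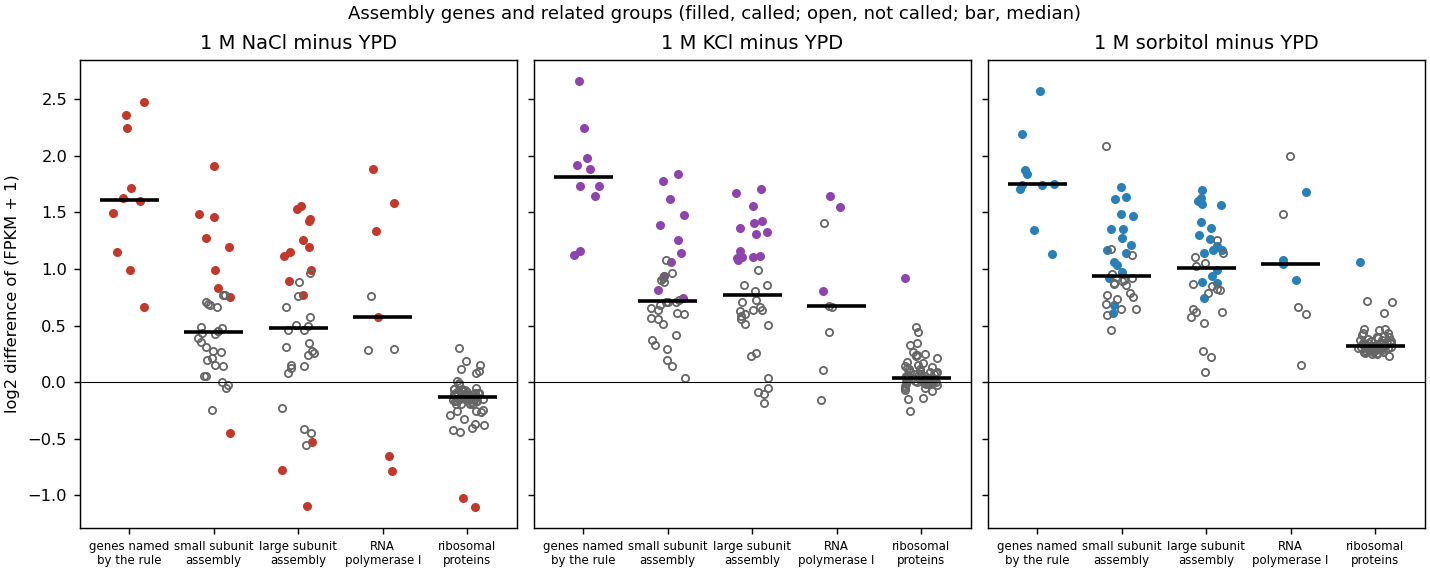
Log2 difference of (FPKM + 1) from YPD for each gene of 5 groups in NaCl, KCl and sorbitol, with filled points called by limma, open points not called and a bar at the group's median. The 10 genes have medians of 1.61, 1.81 and 1.75, and the ribosomal protein genes have medians of -0.13, 0.04 and 0.32, with RPS42 at -1.10, 0.92 and 1.06.

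Between solutes, the other assembly genes that were called were all lower in the salt of the pair, or in NaCl where both were salts. Of 77, 21 were called lower and 0 higher for NaCl minus sorbitol (median -0.52), 6 lower and 0 higher for NaCl minus KCl (-0.32), and 2 lower and 0 higher for KCl minus sorbitol (-0.21). These are 27.3%, 7.79% and 2.6% lower, against 13.6%, 3.99% and 2.53% of all tested genes, so the last is near that share. At an unadjusted p under 0.05 in limma, 35, 16 and 7 were lower and 0 higher in the 3 comparisons. Without NaCl 1, NaCl 2 or sorbitol 1 the 21 became 10, 7 and 10, and without YPD 1 or YPD 2 it became 33. The 6 became 0 without NaCl 1 or KCl 1 and 1 without NaCl 2, with 12, 7 and 7 lower at an unadjusted p under 0.05 in limma. The 2 for KCl minus sorbitol became 0 or 1 without any one library, with 2 to 14 lower at an unadjusted p under 0.05. The members' median of -0.17 for NaCl minus sorbitol was nearer to 0 than that of the other assembly genes, a difference that was not tested. Members were chosen as higher in NaCl too, which leaves out assembly genes low in NaCl, so nothing is read from it. Being lower in NaCl than in sorbitol was not particular to assembly genes. It was called for 53.0% of ribosomal protein genes, 44.4% of RNA polymerase I genes and 12.5% of RNA polymerase III genes. Of the exosome and nuclease genes, 0 were called lower. Under quantile normalization 8 ribosomal protein genes were called higher and 2 lower in NaCl than in sorbitol.

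Of 5 genes for RNA-modifying snoRNPs and other nucleolar proteins, 0 were called in NaCl or in KCl (0 and 3 at an unadjusted p under 0.05 in limma), and 2 rose in sorbitol. These were GAR1 (0.85 ± 0.17) and NHP2 (0.81 ± 0.18), both of the box H/ACA particle, and each call was lost when any 1 of the NaCl, sorbitol or YPD libraries was left out. The share of all tested genes called higher in sorbitol was 3.75%. Among 10 exosome and nuclease genes, RMP1 of RNase MRP rose in NaCl by 1.05 ± 0.325 and SNM1 of the same enzyme fell by 0.82 on the log2 scale (SE 0.23). Both calls were lost when any 1 of the NaCl or YPD libraries was left out. With 1 rise and 1 fall among 10, the shares called in NaCl lay below the 16.0% and 11.5% over all tested genes. In KCl and sorbitol 0 of the 10 were called (2 and 3 higher at an unadjusted p under 0.05 in limma).

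RNA polymerase I and its factors gave 9 tested genes, of which 4 (44.4%) rose and 2 (22.2%) fell in NaCl, 3 (33.3%) rose in KCl and 4 (44.4%) rose in sorbitol. The shares over all tested genes were 16.0% and 11.5% in NaCl, and 6.45% and 3.75% higher in KCl and sorbitol. The NaCl rises numbered 1 without NaCl 1, YPD 1 or YPD 2, and the falls 0 without NaCl 1, NaCl 2 or YPD 1 and 1 without YPD 2. The KCl rises numbered 1 without KCl 1, 0 without YPD 1 and 2 without any other one library. The sorbitol rises numbered 1 without NaCl 1 or NaCl 2, 0 without sorbitol 1 or YPD 1, and 7 with the replicate block. At an unadjusted p under 0.05 in limma, the fits with 0 falls held 2, 1 and 1 in NaCl, and those with 0 rises held 3 in KCl and 7 each in sorbitol. RPC19, a subunit shared by polymerases I and III, had 93.7 and 79.6 FPKM in NaCl, 104 and 68.4 FPKM in KCl and 106 and 80.9 FPKM in sorbitol, against 24.5 and 32.5 FPKM in YPD. Its rise was 1.58 ± 0.24 in NaCl, called whichever library was left out, 1.54 ± 0.24 in KCl (lost without YPD 1) and 1.68 ± 0.24 in sorbitol (lost without sorbitol 1 or YPD 1). Its differences from YPD lay under the members' medians. RPA12, a small subunit of polymerase I, rose by 1.88 ± 0.51 in NaCl (lost without NaCl 1, YPD 1 or YPD 2), its initiation factor RRN3 by 1.65 ± 0.37 in KCl (lost without KCl 1, YPD 1 or YPD 2), and RPA135, the second-largest subunit, by 1.08 ± 0.21 in sorbitol (lost without NaCl 1, NaCl 2, sorbitol 1, sorbitol 2 or YPD 1). The largest subunit, RPA190, fell in NaCl to 109 ± 9.52 FPKM, against 172 ± 10.1 FPKM in YPD (-0.655 ± 0.19, lost when any 1 NaCl or YPD library was left out). HMO1, a high-mobility-group protein of ribosomal DNA, fell by 0.785 on the log2 scale (SE 0.25, lost without NaCl 1, NaCl 2 or YPD 1).

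Of 8 RNA polymerase III genes, 1 (12.5%) rose and 1 (12.5%) fell in NaCl, 1 (12.5%) rose in KCl and 2 (25.0%) rose in sorbitol. The NaCl shares are near those over all tested genes, 16.0% and 11.5%. Over all tested genes 6.45% were called higher in KCl and 3.75% in sorbitol. RPC31, a subunit, rose by 1.43 ± 0.19 in NaCl (called whichever library was left out), 0.81 ± 0.19 in KCl (lost without NaCl 1, NaCl 2, KCl 1, KCl 2 or YPD 1) and 1.03 ± 0.19 in sorbitol (lost without NaCl 1, NaCl 2, sorbitol 1, sorbitol 2 or YPD 1). MAF1, the repressor of this polymerase, fell in NaCl to 29.9 ± 2.19 FPKM, against 58.1 ± 9.17 FPKM in YPD (-0.93 ± 0.17), called whichever library was left out. RPC10, a small subunit shared by the polymerases, rose in sorbitol by 0.70 ± 0.16 (lost when any 1 library other than YPD 2 was left out).

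The 66 cytosolic ribosomal protein genes encode the proteins that assembly factors fit into the subunits. In NaCl 0 rose and 2 fell (median -0.13, limma's unadjusted p was under 0.05 for 0 that were higher and 7 that were lower). In KCl 1 rose (4 higher and 0 lower by the same measure). In sorbitol 1 rose (median 0.32), but all 66 differences were positive, with 30 higher and 0 lower by that measure. The genes called make up 3.03% lower in NaCl and 1.52% higher in each of KCl and sorbitol. These shares lay below the 11.5%, 6.45% and 3.75% over all tested genes. Under quantile normalization the NaCl median changed sign, to 0.13, with 13 higher and 2 lower, and the sorbitol median was 0.03. The 30 genes higher in sorbitol before adjustment then became 3. The NaCl falls numbered 4 without KCl 1 or KCl 2, and the sorbitol rises 2 without YPD 2. RPS42 had 137 and 151 FPKM in NaCl, 622 and 556 FPKM in KCl and 663 and 633 FPKM in sorbitol, against 296 and 324 FPKM in YPD. It thus fell in NaCl (-1.10 ± 0.125) and rose in KCl (0.92 ± 0.125) and in sorbitol (1.06 ± 0.125, lost without sorbitol 1 or YPD 1). RPL9B fell in NaCl by 1.02 on the log2 scale (SE 0.15). Yeast ribosomal protein genes often have near-identical copies, and the sources used here do not tell how reads were split among copies, so both are uncertain.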

How the data were processed

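Per the submitters' processing notes, which give no versions, the authors used TopHat and Cufflinks. Each deposited file listed a value for every gene with no unit named, and these were read as FPKM, since low values lay near multiples of a step that scaled with gene length (82.4% to 87.8% within 0.15 of a whole number). The step, an estimate of relative depth, differed 2.19-fold between libraries. The genome build is unknown here, so positions are left out.

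Of 6166 genes, 6157 matched RefSeq's annotation of assembly Hypbu1, made from another strain, and 2346 had a symbol. Tested were the 5765 genes that reached 1 FPKM in 2 or more libraries. R 4.3.3 and limma 3.58.1 fitted log2(FPKM + 1), which understates changes of low genes, with 1 mean per medium and an intensity trend (4 residual degrees of freedom, 8.31 once moderated). Benjamini-Hochberg adjustment ran over all tested genes within each of 6 comparisons. The fit was tried on simulated data in which genes varied independently. That trial does not cover gaps between duplicates that many genes share, as seen here.

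The members and lists were chosen with earlier results of these data known. Named besides the members are, per list and medium, the 2 largest called rises and falls, and the 5 annotated genes with the most similar profiles. Alternatives were a pseudocount of 0.1, no filter, quantile and median-of-ratios scaling, a fit of only the media compared, a replicate block and leaving out each library. Promoter sequences were not analysed here.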

Additional observations from a re-analysis of the deposited data

How the results depend on the processing

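All 10 assembly factors stayed above YPD in each solute under every setting run. With 1 library left out, the members called higher numbered 2 to 10 in NaCl, 0 to 10 in KCl and 0 to 9 in sorbitol, and those called lower for NaCl minus sorbitol 0 to 2. Of the 77 other assembly genes, the rises then numbered 1 to 27 in NaCl, 1 to 31 in KCl and 0 to 38 in sorbitol, and the falls in NaCl 1 to 4. The number lower was 0 to 5 for NaCl minus KCl, 7 to 33 for NaCl minus sorbitol and 0 to 1 for KCl minus sorbitol. These fits have fewer samples, and where a medium keeps a lone library it is assumed to vary like the others. When only the media compared were fitted, the sorbitol rises numbered 0 among members and 0 among other assembly genes (69 of these other genes at an unadjusted p under 0.05 in limma), and the number lower was 2 for NaCl minus KCl and 0 for KCl minus sorbitol. The sorbitol rises of other assembly genes numbered 24 with no filter and 24 under quantile normalization. For KCl minus sorbitol, 1 was lower with a pseudocount of 0.1, 0 under quantile normalization and 4 with the replicate block. Where no cause is given, the cause was not tested. BMS1 in NaCl lost its call with no filter, under quantile normalization and under median-of-ratios scaling, DRS1 in KCl when 2 media were fitted, MAK16 in sorbitol with no filter and under quantile normalization, and DRS1 in sorbitol with no filter.

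With the replicate block, 10 members were called higher in each solute, and 23, 27 and 46 of the other assembly genes in NaCl, KCl and sorbitol. With 2 pairs, shared numbers cannot be shown to pair libraries, and correlations of same-numbered deviations ran from -0.131 (NaCl and YPD) to 0.454 (KCl and sorbitol). Crossing the numbers of NaCl and YPD and also fitting those 2 media alone, an alternative chosen after seeing the data, gave 10 members and 32 other assembly genes higher (22 for the other assembly genes when the 2 media were fitted alone with no block).

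Differences between solutes, none of them called, changed sign in these cases, with the lowest and highest log2 value when 1 library was left out. NaCl minus KCl ran from -0.676 to 0.307 for BUD22, -0.225 to 0.768 for MAK16, -0.222 to 0.456 for SRP40, -0.603 to 0.032 for RRP9, -0.581 to 0.166 for NIP7 and -0.216 to 0.008 for MPP10. NaCl minus sorbitol ran from -0.513 to 0.081 for NOG2, -0.858 to 0.663 for BUD22, -0.620 to 0.725 for MAK16, -0.484 to 0.002 for RRP9, -0.440 to 0.362 for NIP7 and -0.523 to 0.295 for MPP10. KCl minus sorbitol ran from -0.271 to 0.323 for NOG2, -0.318 to 0.311 for BMS1, -0.674 to 0.847 for BUD22, -0.891 to 0.453 for MAK16, -0.273 to 0.362 for RRP9, -0.233 to 0.570 for NIP7, -0.462 to 0.268 for RRP15 and -0.419 to 0.399 for MPP10. Under quantile normalization BMS1 in KCl minus sorbitol was 0.013.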

Other observations

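The 10 assembly factors held 0.0503% and 0.0389% of all FPKM in the NaCl libraries, 0.0517% and 0.0419% in KCl and 0.0484% and 0.0317% in sorbitol, against 0.0118% and 0.017% in YPD. In length the annotated genes ran from 567 nt (RRP15) to 3600 nt (BMS1).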
